A study of Rattus norvegicus with 16 samples.

Results

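Sgk1 and Nrgn were followed over 16 Affymetrix arrays of rat RNA, 12 from retina and 4 from pineal gland. All probe sets annotated to either symbol were taken, which gave 3 of the 8799 on the array, and 2 of its 4736 named genes. Sgk1 has 1 probe set, L01624_at, and Nrgn has 2, L09119_at and L09119_g_at. The genes were chosen by measured values, the drop from hour 6 to hour 12 between pineal arrays under both ZT and CT, so the pineal hour values are given here as a description with no test. The titles place each array at hour 6 or hour 12, in Zeitgeber time (ZT, conventionally counted from lights on) or circadian time (CT, conventionally the time of the internal clock). Retina has 3 arrays in each of the 4 conditions ZT6, ZT12, CT6 and CT12, and pineal gland has 1 array in each. Strain, sex, age, genotype and lighting are not given for any group, and no treatment other than the time point is named. The labels do not say whether arrays of a group came from separate animals or from pools, so a p-value here measures no more than the scatter of these arrays, which may be technical.

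Sgk1 encodes the serum- and glucocorticoid-regulated kinase, a serine/threonine kinase related to Akt. Its transcript is short-lived and is induced within a short time by glucocorticoids, mineralocorticoids, serum and osmotic stress, and the protein is activated by Pdpk1 and by the mTOR complex that holds Rictor. It acts on ion channels, carriers and ubiquitin ligases of the Nedd4 family. Nrgn encodes neurogranin, a small neuronal protein that holds calmodulin through an IQ motif while calcium is low and releases it when calcium rises or when protein kinase C phosphorylates it. Neurogranin is best known from the dendrites and spines of forebrain neurons. The pineal gland makes melatonin at night, and in rodents the transcript of its key enzyme, Aanat, is low by day.

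In RefSeq's annotation of the rat assembly GRCr8, Sgk1 lies on the minus strand of chromosome 1 between 24799391 and 24916886, a span of 117496 bp with 3 listed starts. These lie at 24807231, 24805570 and 24804831. None is at the upper end of the span, so the bases upstream of that end were not searched. Nrgn lies on the minus strand of chromosome 8 between 45444223 and 45452417, a span of 8195 bp with 1 start. The 250 bases upstream of the third Sgk1 start (chr1:24804832-24805081, minus strand, 69.6% G and C) and of the Nrgn start (chr8:45452418-45452667, minus strand, 58% G and C) are shown 5′ to 3′, because the transcripts of both genes were brighter on the same pineal arrays. Capitals mark the letters TATAAA, read on the gene's strand.
Sgk1 upstream of start 3: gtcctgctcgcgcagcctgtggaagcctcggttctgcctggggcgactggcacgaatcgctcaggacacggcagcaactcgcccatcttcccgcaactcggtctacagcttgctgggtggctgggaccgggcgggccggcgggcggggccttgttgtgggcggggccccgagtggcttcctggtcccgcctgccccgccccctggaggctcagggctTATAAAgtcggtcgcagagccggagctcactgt
Nrgn upstream of start 1: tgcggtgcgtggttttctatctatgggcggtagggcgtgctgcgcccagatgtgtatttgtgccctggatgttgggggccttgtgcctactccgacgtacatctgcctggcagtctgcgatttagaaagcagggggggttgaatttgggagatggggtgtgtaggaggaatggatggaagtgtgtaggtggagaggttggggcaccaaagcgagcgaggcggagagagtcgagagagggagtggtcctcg
The TATAAA of Sgk1 begins 33 bases before its start, and another lies 55 bases before the first listed Sgk1 start. The Nrgn window and that of the second Sgk1 start hold none, and 8.055% of 33469 windows of the same length in the table hold it. Motifs searched on both strands were CACGTG (an E-box, in 5.593% of windows), TGACGTCA (a cyclic AMP response element, in 1.587%), its shorter form TGACG (in 18.22%, including every TGACGTCA), TAATCC (bound by Crx and Otx factors, in 6.337%) and the palindromic glucocorticoid response element (AGAACA and TGTTCT set 3 bases apart, in 0.01195%). None of these was found in the 3 Sgk1 windows or the Nrgn window. That says only that these letters are absent from these stretches.

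Median intensities were 669 to 857 on the retina arrays and 529 to 574 on the pineal arrays, in the linear units of the deposited values. The retina array CT12 number 1 stood apart. Its median rank correlation with the other retina arrays was 0.837, against 0.944 to 0.962 for the rest, and its rod photoreceptor genes summed to 23250 against 294213 to 478652. The pineal label was borne out by Tph1, the first enzyme of serotonin synthesis, at 18774 to 27405 on the pineal arrays against a retina mean of 76.2. The pineal array titled ZT12 carries hour 6 in its description, and the title was followed here. Its Aanat intensity was 12652, against 20036 at CT12, 579 at ZT6 and 432 at CT6. Every ZT hour difference in the pineal gland rests on that array, while the CT differences do not use it. The source names list every pineal array as retina, unlike the titles, and tissue was also taken from the titles. They read 'eye, retina' for the ZT6, CT6 and CT12 pineal arrays. The ZT12 pineal array reads 'brain, retina', as do some of the retina arrays. The pineal ZT hour difference is thus between arrays with different source names, while the CT difference is not. Any effect of what the source names record was not tested.

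In the pineal gland, Sgk1 was brightest at hour 6 in both regimes. Its intensity was 11686 (ZT6) and 9512 (CT6) at hour 6, and 3225 (ZT12) and 1802 (CT12) at hour 12. It was thus 3.62-fold lower at ZT12 than at ZT6 (a log2 difference of -1.85) and 5.28-fold lower at CT12 than at CT6 (-2.39). The hour-6 arrays differed from each other by 1.23-fold and the hour-12 arrays by 1.79-fold, so the distance between hours exceeded that between regimes. With 1 array per condition, there is no replicate error for any of these values, and fewer cells of a type cannot be told apart from less RNA per cell. On the ZT6 array Sgk1 was brighter than 92.3% of all probe sets, and on the CT12 array it was still brighter than 73.7%.

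Nrgn had the larger hour difference under ZT, but from a much lower level and on only one of its probe sets. L09119_g_at read 2100 (ZT6) and 630 (CT6) at hour 6 against 161 (ZT12) and 141 (CT12) at hour 12. It was 13.0-fold lower at ZT12 than at ZT6 (log2 difference -3.58) and 4.47-fold lower at CT12 than at CT6 (-2.04). Unlike Sgk1, it also differed clearly between the hour-6 arrays, by 3.33-fold, with ZT6 the higher. Both hour-12 values lay in the dim part of their arrays, above 26.3% of probe sets at ZT12 and 23.8% at CT12. The size of both folds between hours is therefore uncertain.

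The other Nrgn probe set did not show this pattern. L09119_at read 176 at ZT6, 124 at ZT12, 80.9 at CT6 and 108 at CT12. Its value was 1.42-fold lower at ZT12 than at ZT6 and higher, by 0.35 on the log2 scale, at CT12 than at CT6. Its mean in the pineal gland, 7.07 log2 units, was under the limit of 8.39 used to keep probe sets there, which L09119_g_at passed at 8.79 through its hour-6 values. Over all 16 arrays the log2 values of the 2 Nrgn probe sets had a correlation of -0.135, so the Nrgn pattern rests on L09119_g_at alone.

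Among the 5244 probe sets past the pineal filter, 54, or 1.03%, were at least 2-fold lower at hour 12 under both ZT and CT, and 80, or 1.53%, were at least 2-fold higher. Without the filter, 1.69% of 8740 were at least 2-fold lower in both. Sgk1 and L09119_g_at are among the 54, as the choice of the genes required. Ordered by the smaller of the ZT and CT drops, L09119_g_at stood 2 and Sgk1 stood 5 among the 5244. Its range over the 4 pineal arrays, 2.69 log2 units, put Sgk1 above 98.95% of these probe sets, and that of L09119_g_at was 3.75, where the median probe set spanned 0.60. These positions come from the values that chose the genes and support nothing further.

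**Figure D1:**
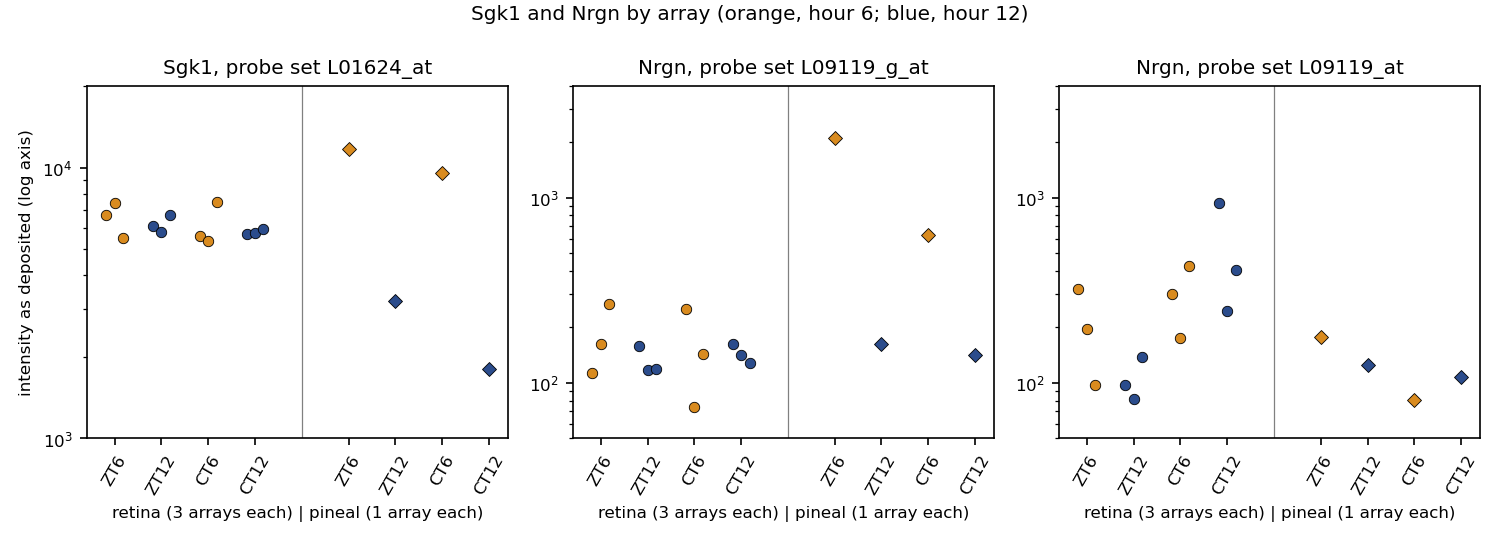
Deposited intensity (log axis) of the Sgk1 probe set and both Nrgn probe sets on each of 16 arrays, with retina as circles (3 arrays per condition), pineal gland as diamonds (1 per condition), hour 6 in orange and hour 12 in blue. The Sgk1 circles lie between 5379 and 7484, with both pineal hour-6 diamonds above and both hour-12 diamonds below them. The L09119_g_at diamonds at hour 6 stand above all circles, while L09119_at shows no such order.

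**Figure D2:**
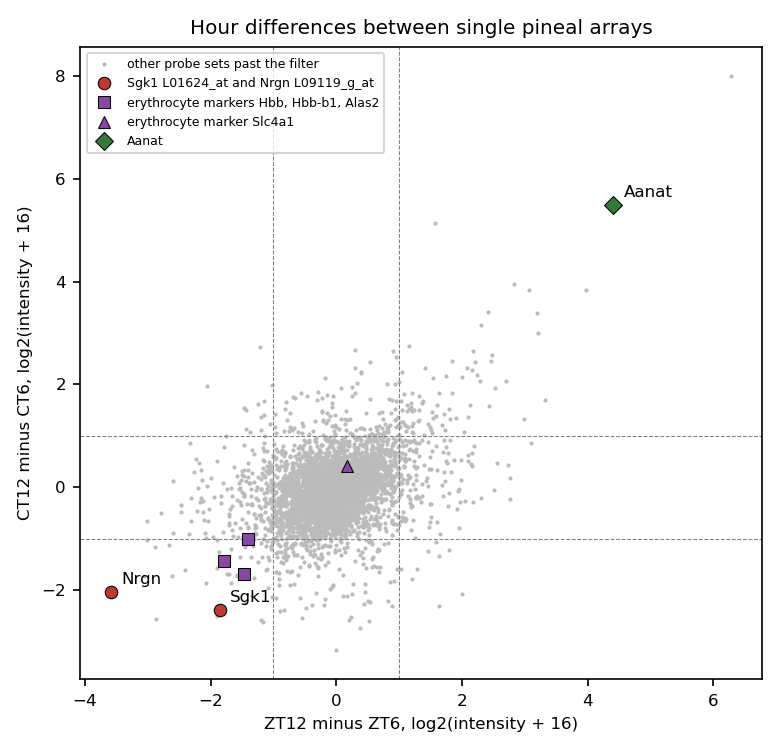
Log2 difference between hour 12 and hour 6 on single pineal arrays for each probe set past the filter, under ZT (horizontal) and CT (vertical), with dashed lines at 2-fold. Sgk1 (-1.85, -2.39) and Nrgn L09119_g_at (-3.58, -2.04) lie in the lower left, where 54 of 5244 probe sets fall, as do 3 of 4 erythrocyte markers, while Aanat lies in the upper right.

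Some blood markers moved with Sgk1 and Nrgn on the pineal arrays. All 4 erythrocyte genes measured here passed the pineal filter, and they summed to 258655 (ZT6) and 143773 (CT6) at hour 6, and to 86731 (ZT12) and 50482 (CT12) at hour 12. That is the same order of arrays as for Sgk1 and L09119_g_at, and the sum was 2.98-fold higher at ZT6 than at ZT12 and 2.85-fold higher at CT6 than at CT12. The beta globins Hbb and Hbb-b1 and the heme enzyme Alas2 were each at least 2-fold lower at hour 12 in both regimes. Over all probe sets past the filter that share was 1.03%. Hbb (132938) and Hbb-b1 (112773) gave most of the sum at ZT6, so the fold of the sum is largely that of the globins. Hbb read 132938, 85358, 47832 and 26690 in the same array order. The fourth gene, Slc4a1, the erythrocyte anion exchanger, was not lower, at 1608 and 1363 at hour 6 against 1805 and 1819 at hour 12.

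Platelet markers, a list added after the values were seen, gave 1 gene at least 2-fold lower at hour 12 in both regimes among 4 past the filter. Over all probe sets past the filter that share was 1.03%. Pf4, a platelet chemokine, read 9947 (ZT6) and 2785 (CT6) at hour 6 against 1567 (ZT12) and 1274 (CT12) at hour 12, whereas the platelet integrin Itga2b read 1799, 1009, 878 and 1272. P2ry12 read 482, 104, 578 and 397 in the same order, higher at hour 12 in both regimes. Selp read 595, 166, 543 and 434, higher at hour 12 under CT. Of 9 choroid plexus and meninges markers past the filter, 7 were lower at hour 12 in both regimes, none by 2-fold in both. The sum of all 10 on the array was 1.27-fold (ZT) and 1.17-fold (CT) higher at hour 6. Ttr alone gave 76247 of the 158640 at ZT6, and was 1.10-fold and 1.00-fold higher at hour 6. Dcn was 1.62-fold and 2.26-fold higher. Over all probe sets past the filter, 37.9% were lower at hour 12 in both regimes. The part of blood or of adjoining tissue in the Sgk1 and Nrgn differences was not tested.

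Markers of the gland itself went both ways. Of 11 pinealocyte markers past the filter, 6 (54.5%) were lower at hour 12 in both regimes, while Aanat, given above, was far higher there. The list summed to 175173 at ZT6, 147782 at ZT12, 166724 at CT6 and 175267 at CT12. Without Aanat these sums were 174593, 135130, 166293 and 155231, 1.29-fold (ZT) and 1.07-fold (CT) higher at hour 6. Of 8 forebrain and habenula neuron markers past the filter, 3 (37.5%), Gap43, Syp and Syn1, were lower at hour 12 in both regimes and 5 were higher in both. That list summed to 52741, 58130, 57658 and 68993 in the same order. Camk2a, a forebrain kinase often found with neurogranin, read 174, 282, 46 and 67 in the same order, and the vesicular glutamate transporter Slc17a7 read at most 92.5. Both were under the pineal filter. The 8 members past it reached from Nefl, at 282.5 to 697, up to Snap25, at 18197 to 26818. Myelin markers summed to 5157, 4215, 3929 and 3015. No marker gene was at 0 on these arrays.

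**Figure D3:**
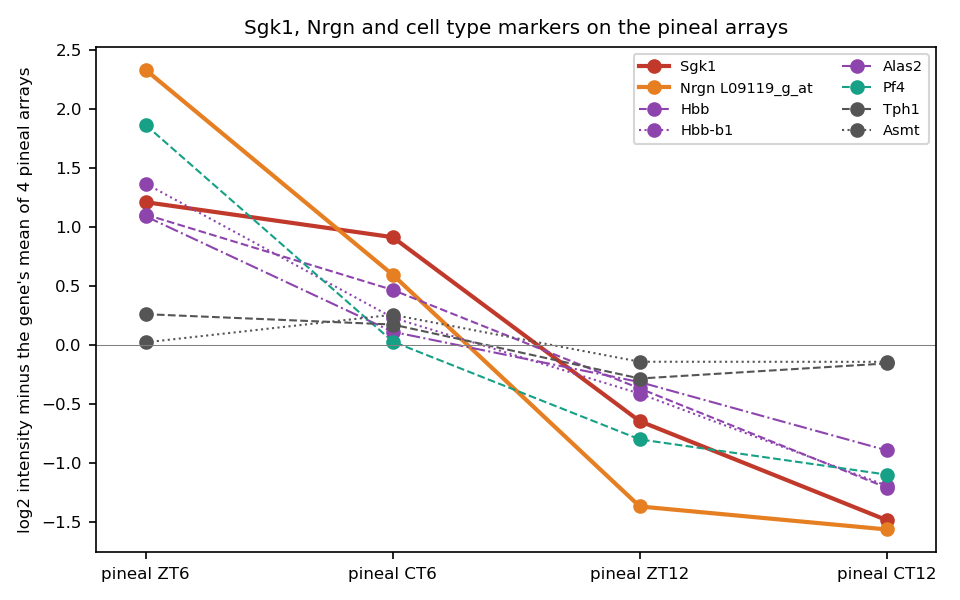
Log2 intensity of Sgk1, Nrgn L09119_g_at and marker genes on the 4 pineal arrays, each minus its own mean over those arrays; lines join the single arrays of a gene and carry no time order. Sgk1, Nrgn, Hbb, Hbb-b1, Alas2 and Pf4 are all highest at ZT6 and lowest at CT12, while Tph1 and Asmt stay within a narrow band. Only some markers are drawn. The erythrocyte gene Slc4a1 and the pinealocyte marker Aanat, both higher at hour 12 in both regimes, are left out. Tph1 and Asmt are taken from 11 pinealocyte markers past the filter, which went both ways.

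In the retina, no difference in Sgk1 between hours or regimes was detected. The 3 arrays read 6682, 7375 and 5475 at ZT6 (mean 6511 ± 962, SD, n = 3) and 6090, 5789 and 6708 at ZT12 (6196 ± 469). They read 5585, 5379 and 7484 at CT6 (6149 ± 1161) and 5687, 5757 and 5941 at CT12 (5795 ± 131). The groups overlapped in every pairing of conditions, and all 12 arrays lay within 1.39-fold of each other, against 6.48-fold over the 4 pineal arrays. Only 2.80% of the probe sets tested had a smaller range over the retina arrays.

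The retina was tested with limma on quantile-normalized log2(intensity + 16), with p-values adjusted over 5244 probe sets, and differences are on that log2 scale with standard errors. From ZT6 to ZT12 Sgk1 differed by -0.043 ± 0.17 (adjusted p = 0.983), a comparison in which 0.286% of probe sets passed. From CT6 to CT12 it differed by 0.070 ± 0.17 (adjusted p = 0.779, 0.0381% passed). The 95% intervals of these differences were 0.752-fold to 1.25-fold and 0.813-fold to 1.35-fold.

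Regime made no detectable difference to retinal Sgk1 either. In the same limma fit, CT6 against ZT6 gave -0.077 ± 0.17 (adjusted p = 1, interval 0.735-fold to 1.22-fold, 0% passed). CT12 against ZT12 gave 0.036 ± 0.17 (adjusted p = 0.892, interval 0.794-fold to 1.32-fold, 0.61% passed). Averaged over regimes, hour 12 against hour 6 gave 0.014 ± 0.12 (adjusted p = 0.955, interval 0.843-fold to 1.21-fold, 0.21% passed). Averaged over hours, CT against ZT gave -0.020 ± 0.12 (adjusted p = 0.94, interval 0.823-fold to 1.18-fold, 0% passed), and the CT hour effect minus the ZT hour effect was 0.11 ± 0.24 (adjusted p = 0.785, interval 0.754-fold to 1.55-fold, 0.0191% passed). In the comparisons where no probe set passed, 266 (CT6 against ZT6) and 621 (CT against ZT) had an unadjusted p under 0.05. Without CT12 array 1, Sgk1 gave 0.041 for CT12 against CT6 (adjusted p = 0.92) and 0.0074 for CT12 against ZT12 (adjusted p = 0.988).

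Blood and lens markers varied over the retina arrays far more than Sgk1 did. Erythrocyte genes summed to between 24189 and 109882 on the retina arrays, a 4.54-fold span. The array with the most, CT6 array 3, read 7484 for Sgk1 and 142 for L09119_g_at, the latter in the middle of the retina range. Lens genes spanned 71.4-fold, from 53924 to 3850957, and the arrays lowest in them, CT6 array 3 and ZT6 array 2, had the highest retinal Sgk1, 7484 and 7375. The arrays highest in them, CT12 arrays 1 and 2, did not have the lowest Sgk1. They read 5687 and 5757, against 5379 on CT6 array 2, where lens genes summed to 981549. The part of lens in these Sgk1 values was not tested.

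Nrgn was dim in the retina on both probe sets. L09119_g_at read 113, 161 and 265 at ZT6, 159, 117 and 119 at ZT12, 250, 73.6 and 142 at CT6, and 161, 141 and 128 at CT12. The groups overlapped in all 4 pairings, and the means were 180 ± 77.2, 132 ± 23.5, 155 ± 88.7 and 144 ± 16.4 (SD, n = 3 each). L09119_at was more variable: it read 321, 195 and 96.7 at ZT6, 97.5, 82.1 and 138 at ZT12, 303, 173 and 426 at CT6, and 939, 243 and 407 at CT12. Its CT12 arrays all lay above its ZT12 arrays, and the highest value of all was on CT12 array 1, the array that stood apart.

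Both probe sets were under the retina filter (means of 7.94 and 7.34 log2 units against a limit of 8.88), so they had no test in the main fit. With no filter, limma over 8740 probe sets gave L09119_at a difference of 1.84 ± 0.58 for CT12 against ZT12 (adjusted p = 0.19) and 1.27 ± 0.41 for CT against ZT (adjusted p = 0.476). Neither passed, and without CT12 array 1 they were 1.21 and 0.96. For the hour, L09119_g_at gave -0.20 ± 0.36 under ZT (adjusted p = 0.967) and -0.22 ± 0.36 under CT (adjusted p = 0.741). The 95% intervals of these hour differences, 0.501-fold to 1.50-fold and 0.495-fold to 1.49-fold, are wider than those of Sgk1. Since the hour-6 arrays of the retina already read as low as the pineal arrays at hour 12, a drop like that of the pineal gland could not have been seen here.

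**Figure D4:**
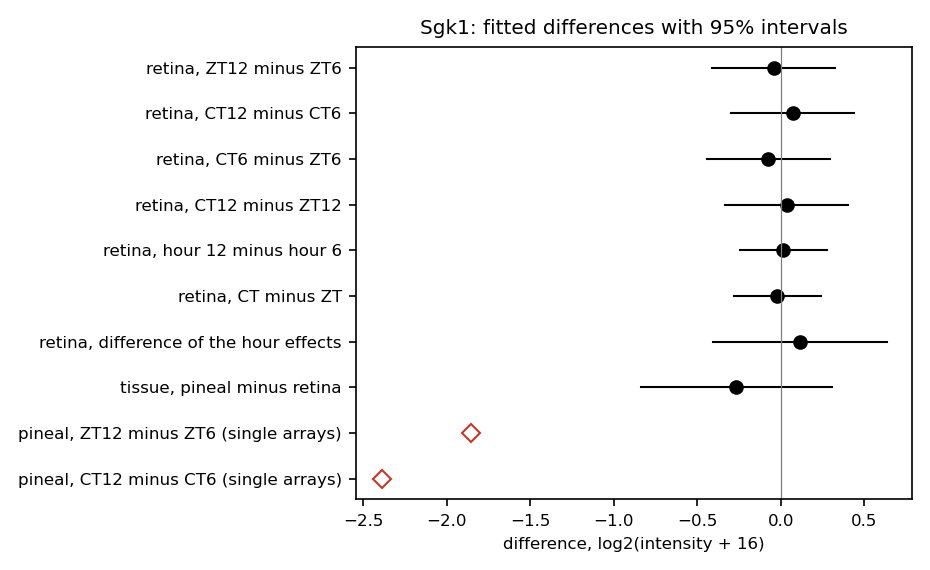
Sgk1 differences on the log2(intensity + 16) scale. Filled circles are limma estimates with 95% intervals (7 retina comparisons from 12 arrays and the tissue comparison from 16), and open diamonds are single pineal arrays without error. All 7 retina intervals include 0. The pineal differences between hours are -1.85 and -2.39. These and the tissue estimate use the pineal values that chose Sgk1, so they are a description and no test is read from them.

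Set against the retina, the pineal values of Sgk1 lay on both sides. Fitted with condition as a covariate over all 16 arrays, pineal minus retina was -0.27 ± 0.27 in limma (interval 0.559-fold to 1.24-fold). The pineal values in this difference are those that chose the gene, so it is a description and no p is read from it. In that comparison 3977 probe sets, or 75.8%, passed, 2066 higher and 1911 lower in the pineal gland (1621 and 2279 on the values as deposited). Both pineal hour-6 arrays were above every retina array, by 1.99-fold (ZT6) and 1.62-fold (CT6) over the retina median of 5865. Both hour-12 arrays were below every retina array, 1.82-fold (ZT12) and 3.25-fold (CT12) under that median. This order of arrays was the same on deposited values, after quantile normalization and after scaling to a common median. The sign of the tissue mean was not, since the common median gave 0.24.

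For Nrgn, the pineal values that chose the gene are again only described. L09119_g_at read 2100 at ZT6 and 630 at CT6, above every retina array, where it was too dim for a fold to be read. At ZT12 and CT12 it lay inside the retina range of 73.6 to 265, and these positions held under all 3 scalings. L09119_at lay inside or just below its retina range of 82.1 to 939 on every pineal array. Without a filter the fitted tissue difference of L09119_g_at was 1.85 ± 0.43 log2 units. It has no p here for the same reason as that of Sgk1.

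The kinase pathway around Sgk1 was read on the same arrays. Of 25 genes listed for the Sgk1 kinase pathway, 19 are on the array and 15 passed the pineal filter. None was 2-fold lower at hour 12 in both regimes, where the share over all probe sets was 1.03%, so a list of this size would seldom hold one. By any amount, 2 (13.3%) were lower and 8 (53.3%) higher in both regimes, against 37.9% and 25.3% of all probe sets. Median differences of the list were 0.09 (ZT) and 0.13 (CT), against -0.07 and -0.07 over all probe sets. Pdpk1, which phosphorylates the kinase in its activation loop, read 690 at ZT6, 1161 at ZT12, 879 at CT6 and 1255 at CT12, opposite in direction to Sgk1. Igf1r, the growth factor receptor upstream, was 3.63-fold (ZT) and 5.57-fold (CT) higher at hour 12. It was the only list member past 2-fold in both, where 1.53% of all probe sets were at least 2-fold higher.

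The steroid receptors that act on Sgk1 transcription differed little between hours in the pineal gland. Nr3c1, the glucocorticoid receptor, read 906, 854, 691 and 590 at ZT6, ZT12, CT6 and CT12, and Nr3c2, the mineralocorticoid receptor, read 600, 776, 791 and 776. Between tissues, limma placed Nr3c1 lower in the pineal gland by -0.84 ± 0.15 (adjusted p = 0.000133) and gave Nr3c2 0.06 ± 0.13 (adjusted p = 0.678), which turned to -0.44 on the values as deposited (adjusted p = 0.0146). Nedd4, a ubiquitin ligase, was lower in the pineal gland by -3.30 ± 0.13 (limma adjusted p = 2.61e-11), and Mapk7, a kinase upstream of Sgk1, by -1.57 ± 0.33 (adjusted p = 0.000627). In all, 5 of 16 pathway genes tested were higher and 7 lower in the pineal gland, where 39.4% of all probe sets tested were higher and 36.4% lower. With the same shares as background, the other lists gave 4 higher and 4 lower of 10 (glucocorticoid-induced), 0 and 6 of 10 (channels and carriers), 1 and 2 of 4 (IQ family), 2 and 5 of 12 (calmodulin), 2 and 4 of 6 (protein kinase C) and 6 and 1 of 12 (NMDA receptor and postsynaptic).

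Of 20 genes listed as induced by glucocorticoids, 12 are on the array and 8 passed the pineal filter. None was at least 2-fold lower at hour 12 in both regimes. The share over all probe sets was 1.03%, so a list of this size would seldom hold such a gene. By any amount, 1 (12.5%) was lower and 4 (50%) higher in both regimes, against 37.9% and 25.3% of all probe sets. The list medians were 0.24 (ZT) and 0.12 (CT). Errfi1, a feedback inhibitor of the epidermal growth factor receptor, went the other way from Sgk1, 4.02-fold and 4.44-fold higher at hour 12. It was the 1 list member at least 2-fold higher in both regimes, against 1.53% of all probe sets. In the retina, Cdkn1a, an inhibitor of cell cycle kinases, was lower at CT12 than at ZT12 by -1.57 ± 0.28 (limma adjusted p = 0.044). That call did not hold without CT12 array 1 (adjusted p = 0.0505) or in 15 of 22 alternatives in all, with adjusted p from 4.24e-05 to 0.243. It was the only retina call among the genes of the 7 pathway lists. In that comparison 0.61% of all probe sets tested passed, so this single call is not read as a result about the list. Tsc22d3, a much used glucocorticoid target, has no probe set under that name.

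Of 24 listed channels and carriers that Sgk1 is known to regulate, 18 are on the array and 12 passed the pineal filter, with 1 (8.33%) lower and 4 (33.3%) higher at hour 12 in both regimes, against 37.9% and 25.3% of all probe sets. Slc6a6, the taurine transporter, was 1.78-fold (ZT) and 2.10-fold (CT) higher at hour 12. Slc5a1, the sodium-glucose transporter, was the one lower in both, 1.28-fold and 1.55-fold. Scnn1a, a subunit of the epithelial sodium channel, read 611 to 839 on the pineal arrays.

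Gap43 and Pcp4, which share the calmodulin-binding motif of neurogranin, were lower at hour 12 in both regimes, by less than L09119_g_at. Gap43, a growth cone protein, read 11567 at ZT6, 6880 at ZT12, 9588 at CT6 and 6644 at CT12. It was 1.68-fold and 1.44-fold lower at hour 12. Pcp4, another small IQ protein, read 508, 124, 403 and 212, so it was 4.11-fold and 1.90-fold lower at hour 12, but it was under the pineal filter. Of 6 genes in this family list, 4 are on the array and 3 passed, with Gap43 and Basp1 (66.7%, against 37.9% of all probe sets) lower in both regimes, Marcks higher under ZT (0.11) and lower under CT (-0.28), and medians of -0.18 (ZT) and -0.53 (CT). Gap43 was higher in the pineal gland than in the retina by 1.72 ± 0.19 and Pcp4 was lower by -5.37 ± 0.29 (limma adjusted p = 1.4e-06 and 7.04e-10).

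Calmodulin, which neurogranin binds, differed little between hours. Calm2, 1 of the calmodulin genes and the only one with a probe set under its name, read 18519 at ZT6, 16752 at ZT12, 20356 at CT6 and 17786 at CT12. None of 13 calmodulin signalling genes past the pineal filter (17 on the array) was 2-fold lower or higher in both regimes. The shares over all probe sets were 1.03% and 1.53%, so a list of this size would seldom hold such a gene. By any amount, 4 (30.8%) were lower and 4 (30.8%) higher in both, against 37.9% and 25.3% of all probe sets. The medians were 0.08 and -0.11. Adcy8, a calmodulin-stimulated adenylyl cyclase, was 3.65-fold and 1.92-fold higher at hour 12. Between tissues Calm2 gave -0.57 ± 0.11 (limma adjusted p = 0.000199), which turned to 0.20 at a common median.

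Of 6 protein kinase C genes on the array 3 passed the pineal filter, and none was 2-fold lower or higher in both regimes. The shares over all probe sets were 1.03% and 1.53%, so a list this small would seldom hold such a gene. Prkcb was 4.01-fold and 1.45-fold higher at hour 12 and Prkch was 1.41-fold and 1.86-fold lower. All 12 measured genes of the NMDA receptor and postsynaptic list passed, with medians of -0.02 and -0.32. None was 2-fold lower in both, where again the share over all probe sets was 1.03%. By any amount, 4 (33.3%) were lower and 3 (25%) higher in both, against 37.9% and 25.3% of all probe sets. Homer1, a postsynaptic scaffold, was 2.06-fold and 2.41-fold higher at hour 12, the 1 list member past 2-fold in both, against 1.53% of all probe sets. Grin1, the obligatory NMDA receptor subunit, read 896, 1105, 1284 and 896 at ZT6, ZT12, CT6 and CT12, with a tissue difference of 0.11 ± 0.17 (limma adjusted p = 0.572) that turned to -0.36 on the values as deposited.

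The genes whose log2 levels most resembled Sgk1 over all 16 arrays, by Pearson's r, were Rpl13a (0.86), Cd37 (0.804), Adcyap1 (0.787), St3gal2 (0.778) and Kcnj10 (0.747). These arrays share 2 tissues and 4 conditions, so r is a description. Rpl13a, a ribosomal protein gene, read 37192 and 39913 at ZT6 and CT6 in the pineal gland and 26018 and 25182 at ZT12 and CT12. Over the 12 retina arrays alone the list was different, led by Fosl2 (0.848), an AP-1 factor, then Car5a (0.744), Cebpb (0.724), Ndn (0.703) and Arrb2 (0.691). For Fosl2 the value without CT12 array 1 was 0.851.

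Most like L09119_g_at over 16 arrays were Tmed10 (0.912), Tcta (0.901), Psmb5 (0.841), Psmb2 (0.838) and the globin Hbb-b1 (0.831). Without the ZT6 pineal array, where Nrgn was brightest, these were 0.824, 0.797, 0.731, 0.744 and 0.661. Tcta read 29016 (ZT6) and 19538 (CT6) at hour 6 against 11851 (ZT12) and 10568 (CT12) at hour 12, the same order as Nrgn. Over the 12 retina arrays, where L09119_g_at was dim, the nearest were Pdcd2 (0.721), Mrpl45 (0.715), Pdap1 (0.708), Fmc1 (0.692) and Xpnpep1 (0.661). Between themselves, Sgk1 and L09119_g_at had r of 0.394 over 16 arrays and -0.101 over the 12 retina arrays.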

How the data were processed

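The values are linear intensities as deposited by the authors, 1 per probe set and array; the sources used here do not give the summarization, background correction or scaling. Their trimmed mean (2% at each end) was 2503 to 2506 on every array. Arrays give no counting depth, and their number limits the precision. Of 8799 probe sets 59 are controls, and of the other 8740, 7006 carry 1 gene symbol, 308 several and 1426 none. Retina arrays, or all 16 for the tissue comparison, were quantile normalized; pineal arrays were compared as deposited. Values became log2(intensity + 16), and probe sets with a mean at or above the 40th percentile, 5244, were tested with limma 3.58.1 (lmFit and eBayes, two-sided, R 4.3.3) and Benjamini-Hochberg adjustment at 0.05. The retina fit had 8 residual and 2.54 prior degrees of freedom, the tissue fit 11 and 2.79. A fold on the log2(intensity + 16) scale understates changes of dim genes; pineal folds are ratios of deposited intensities. Sequences are RefSeq's (GRCr8), with Python 3.11.15 for the motif search, and both genes matched. Sgk1, Nrgn, 7 pathway lists and 11 marker lists were chosen with earlier results of these data known. From each pathway list, genes that passed a retina test, those with the largest shared pineal difference and those with a fixed role are named, and for each member the 5 genes most correlated with it. The fit was tested on simulated data. Alternatives were offsets of 1 and 64, other scalings, other filters, a trended robust prior, array weights, a replicate block and arrays left out.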

Additional observations from a re-analysis of the deposited data

How the results depend on the processing

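Sgk1 passed the threshold in none of 158 alternative fits of the retina comparisons, with adjusted p of 0.395 or more (limma). Its differences were near 0, and the sign changed in 24 of them. On values as deposited, the log2 difference was -0.069 for CT12 against CT6, -0.094 for CT12 against ZT12, -0.066 for the hour and -0.0061 for the difference of the hour effects. At a common median these were -0.078, -0.12, -0.040 and -0.076, and the tissue difference was 0.24. Array weights gave 0.0034 for ZT12 against ZT6 and 0.031 between tissues. The cause was not tested. Without 1 array at a time the ranges were -0.16 to 0.050 (ZT12 against ZT6), -0.023 to 0.21 (CT12 against CT6), -0.21 to 0.018 (CT6 against ZT6), -0.021 to 0.091 (CT12 against ZT12), -0.047 to 0.082 (hour), -0.089 to 0.027 (regime), 0.018 to 0.25 (difference of the hour effects) and -0.58 to 0.14 (tissue). Without the arrays numbered 3, which share a source name that differs from that of the other retina arrays, Sgk1 gave -0.22, 0.22, -0.34 and 0.10 for the first 4 of these, -0.12 for the regime and 0.44 for the difference of the hour effects (adjusted p of 0.395 or more). Other tissue signs that turned were Nr3c2 (-0.44) and Grin1 (-0.36) on values as deposited and Calm2 (0.20) at a common median. Pineal differences kept their direction under other offsets and scalings, from -1.86 to -1.74 (ZT) and -2.40 to -2.30 (CT) for Sgk1 and from -3.69 to -3.26 and -2.15 to -1.76 for Nrgn L09119_g_at.

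Deviations of same-numbered retina arrays from their group means had 18 correlations from -0.413 to 0.414, with a median of 0.012. Differently numbered arrays had 36, from -0.519 to 0.533, with a median of -0.029. The numbers were therefore not taken to pair the arrays, though these ranges cannot exclude a weak link by number. With the replicate block Sgk1 still gave -0.043 ± 0.18 (limma adjusted p = 0.982) for ZT12 against ZT6 and 0.070 ± 0.18 (adjusted p = 0.802) for CT12 against CT6.

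Counts of calls over all probe sets moved far more than Sgk1 did. Over the alternatives they ranged from 0 to 279 (ZT12 against ZT6), 0 to 2524 (CT12 against CT6), 0 to 3 (CT6 against ZT6), 0 to 2568 (CT12 against ZT12), 0 to 1432 (hour), 0 to 1031 (regime), 1 to 1370 (difference of the hour effects) and 2765 to 5338 (tissue). The lowest and highest tissue counts came with a filter at the 60th percentile and with no filter, which change the number of probe sets tested. The highest retina counts came with array weights. Without CT12 array 1 there were 79 calls for ZT12 against ZT6, 7 for CT12 against CT6 and 68 for the hour. Without CT12 array 3 there were 1306 for CT12 against CT6, 1072 for CT12 against ZT12, 178 for the hour and 63 for the difference of the hour effects.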
